A study of Mus musculus with 4 samples.

Results

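This account concerns 10 transcription factor genes of haematopoietic stem and progenitor cells, Meis1, Gata1, Gata2, Hlf, Tal1, Lyl1, Lmo2, Myb, Mecom and Erg, and the open chromatin found at them in mouse brain macrophages. A merged ATAC-seq peak was assigned to a gene when its centre lay inside the gene body, or when that gene was the nearest protein-coding gene within 100 kb. By this rule 59 of 74695 merged peaks belonged to 8 of the 10 genes, and Gata1 and Erg had 0.

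ATAC-seq marks open chromatin, where the transposase Tn5 can insert sequencing adapters. The cells were sorted brain parenchymal macrophages, with 2 libraries named MDM and 2 named YSM. The series title speaks of monocyte-derived macrophages, while YSM is left without explanation. Every library, MDM and YSM alike, carried the genotype label Ms4a3-Ai9 and the treatment label DR-3x. Ms4a3 is active in progenitors of granulocytes and monocytes, and the Ai9 allele makes a red fluorescent protein once Cre has acted. The labels give no meaning for DR-3x, no age, and no word on whether 2 libraries with the same group name were made from different mice. The deposited intervals hold no value per library, so no replicate error and no test between the groups can be given for a gene. The authors' 2 differential lists stand in their place, and a listed peak was taken from its list's name as more accessible in that group.

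The 10 genes encode DNA-binding and bridging proteins that keep blood stem cells and progenitors in their state. Tal1 or Lyl1, both basic helix-loop-helix factors that bind E-boxes, can join a GATA factor and Lmo2 in one complex, with Lmo2 as the bridge. Meis1 is a homeobox cofactor of Hox proteins, Hlf a PAR-type leucine zipper factor of stem cells, and Erg an Ets factor also used by endothelium. Myb drives progenitor growth, Mecom encodes the zinc-finger protein Evi1, and Gata1 directs red cell and megakaryocyte formation. Many of these genes are switched down as myeloid cells mature.

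Where the starts of these genes were open is easiest to see beside their sequence. RefSeq promoter windows of GRCm38.p6, the build that matches mm10, run from 250 bases before an annotated start to 50 after it and were found for 9 of the 10 genes, with 14 windows in all. Lmo2 was not matched. These windows are shown because they stand for the patterns met, each as the 250 bases before the start, 5′ to 3′ on the gene's strand, with CG dinucleotides in capitals. The Meis1 window held the YSM-listed peak, the Hlf window an unlisted peak, the Lyl1 window the only peak of its gene, and the window of the outer Mecom start none.
Meis1, chr11:19018970-19019219, minus strand: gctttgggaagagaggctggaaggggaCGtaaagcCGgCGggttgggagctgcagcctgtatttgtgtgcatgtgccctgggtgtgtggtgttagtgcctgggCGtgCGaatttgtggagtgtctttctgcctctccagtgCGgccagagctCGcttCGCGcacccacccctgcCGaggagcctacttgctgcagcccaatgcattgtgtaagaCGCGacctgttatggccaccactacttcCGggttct
Hlf, chr11:90390918-90391167, minus strand: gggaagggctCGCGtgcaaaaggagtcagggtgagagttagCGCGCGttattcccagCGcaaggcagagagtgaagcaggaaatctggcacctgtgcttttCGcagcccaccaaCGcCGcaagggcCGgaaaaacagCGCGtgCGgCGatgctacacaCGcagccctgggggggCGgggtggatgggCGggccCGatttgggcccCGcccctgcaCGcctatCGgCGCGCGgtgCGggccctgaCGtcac
Lyl1, chr8:84701207-84701456, plus strand: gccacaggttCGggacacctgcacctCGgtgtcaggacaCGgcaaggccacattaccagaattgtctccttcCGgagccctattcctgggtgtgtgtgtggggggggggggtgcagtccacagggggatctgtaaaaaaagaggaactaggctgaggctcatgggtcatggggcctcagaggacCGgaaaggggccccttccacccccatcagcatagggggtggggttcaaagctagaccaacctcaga
Mecom, chr3:30509760-30510009, minus strand: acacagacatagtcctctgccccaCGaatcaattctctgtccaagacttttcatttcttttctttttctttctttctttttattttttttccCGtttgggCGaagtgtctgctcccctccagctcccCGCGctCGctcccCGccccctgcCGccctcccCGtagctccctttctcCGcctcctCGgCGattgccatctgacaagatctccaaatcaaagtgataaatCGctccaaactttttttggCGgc
The printed stretches held 13 CG dinucleotides at Meis1, 26 at Hlf, 5 at Lyl1 and 14 at Mecom. The Meis1 stretch lay inside the annotated gene interval, and the gene table does not tell exons, introns or untranslated regions apart.

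Members differed widely in the number of sites. Lmo2 had the most, with 15 merged peaks, more than 94.7% of the 15276 protein-coding genes with any peak. Meis1 and Myb had 11 each, above 90.1% of those genes. The lead of Lmo2 rests on distant sites, since within 20 kb Meis1 kept 11 peaks and Lmo2 8. With genes of every annotated kind Meis1 had 8 and Lmo2 6, and with any peak within 50 kb of a member counted, Lyl1 led with 20 against 12 at Lmo2. Gata2 had 8 and Tal1 had 7, followed by Hlf with 4, Mecom with 2 and Lyl1 with 1. The median over all genes with a peak was 3, and 30.2% of protein-coding genes had none, as Gata1 and Erg did here. Counts inside the gene, set per 100 kb of gene length, gave another order. Gata2 and Lyl1 had 30.4 peaks per 100 kb, Tal1 26.1, Lmo2 16.7, Myb 13.9, Meis1 4.31, Hlf 1.84 and Mecom 0.358. Mecom, the longest member at 558.5 kb, thus held 2 peaks inside it, and the 3.3 kb gene Lyl1 held 1.

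**Figure D1:**
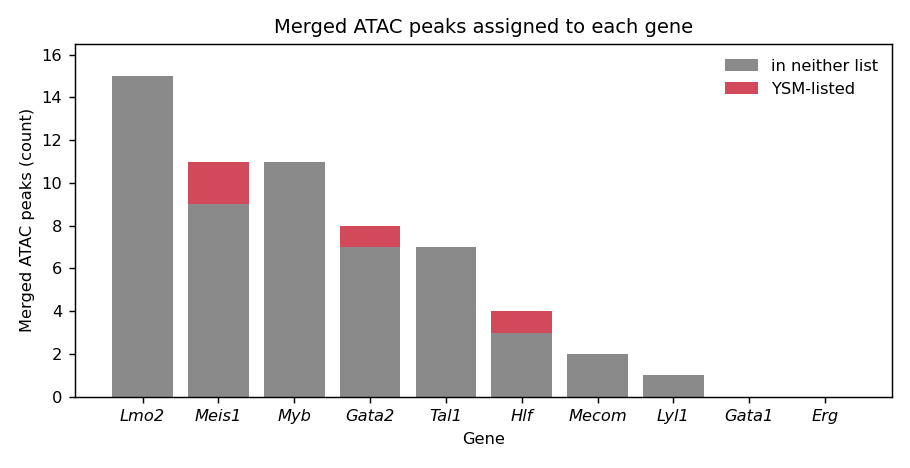
Merged ATAC peaks (count, y axis) assigned to each of the 10 genes (x axis), with peaks in neither list in grey and YSM-listed peaks in red. Lmo2 had 15 peaks and none listed, Meis1 had 2 listed of 11, and Gata1 and Erg had 0 peaks.

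Of the 59 peaks, 4 were YSM-listed (6.78%) and 0 MDM-listed. Over all merged peaks 1.48% were YSM-listed (1104) and 0.145% MDM-listed (108). The 4 lay at 3 genes, with 2 at Meis1, 1 at Gata2 and 1 at Hlf. Of genes with a merged peak, 4.28% had a YSM-listed peak and 1.09% had 2 or more. Those genes had a median of 3 peaks, and the 8 members with any had 7.5, so these gene shares are not matched for peak number. The members were chosen with earlier results of these data known, so these shares are a description and carry no test. The MDM list is so short that 0 of 59 is a share near its background.

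Meis1 (NCBI gene 17268, chr11:18880428-19019651) was open at its start, and the peak there was YSM-listed. That peak, chr11:19018732-19019226, was 495 bp wide, combined 7 subpeaks and had its centre 10 bp before the annotated start. Subpeaks are the library-level peaks that were merged into an interval. With at most 3 of them at least 1 of the 4 libraries had no call there, while 4 or more leave room for a call in each. The Meis1 start peak had the most subpeaks of any member peak. Peaks at promoter windows were seldom YSM-listed, at 0.841% (89 of 10582). Among the 595 with 7 or more subpeaks it was the 1 that was. That limit is the subpeak number of this peak itself, so the count describes it and is no measure of rarity. The other YSM-listed Meis1 peak, chr11:18957699-18958104, lay inside the gene, 61068 bp past the start, with 406 bp and 3 subpeaks. Peaks with 3 subpeaks were YSM-listed at 2.55%.

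The other 9 Meis1 peaks were in neither list. A peak of 6 subpeaks lay inside the gene 93876 bp past the start, and one of 4 subpeaks 48934 bp past it. Narrow intervals of 1 subpeak flanked the listed start peak on each side, with gaps of 370 and 140 bp. Before the start, peaks of 4 and 5 subpeaks had their centres 1675 and 8091 bp away. The remaining 3 lay beyond the far end of the gene, 2520 to 8699 bp from it, at the long non-coding RNA gene 8430419K02Rik. No other protein-coding gene took a peak within 100 kb of Meis1, so its 11 peaks were all that were called there.

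Gata2 (NCBI gene 14461, chr6:88193891-88207032), a zinc-finger factor needed for blood stem cells to form, had its YSM-listed peak before the gene. The interval chr6:88184413-88184748 was 336 bp wide with 4 subpeaks, and its centre lay 9311 bp before the first annotated start. It also lay inside the long non-coding RNA gene Gm38708. Peaks of 4 subpeaks were YSM-listed at 0.718% over the genome. At the first start itself a peak of 3 subpeaks reached into the promoter window, and at the second start peaks of 1 and 2 subpeaks did, none of them listed. An unlisted peak of 4 subpeaks lay 4132 bp before the first start. Inside the gene all 4 peaks had at most 2 subpeaks, which leaves 2 or more libraries without a call at each interval. The first of them lay 111 bp from the peak at the first start, and those at the second start lay 69 bp apart. Such neighbours can be pieces of 1 open region with more calls than either interval shows. Both Gata2 peaks of 4 subpeaks thus lay before the gene.

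The wider Gata2 region held 24 merged peaks within 100 kb, of which 16 were assigned to Rpn1 or Eefsec. Among these 16 were 3 more YSM-listed peaks. The peak chr6:88123823-88124084, of 3 subpeaks, lay 69.9 kb before the first Gata2 start and was assigned to Rpn1, a gene of protein glycosylation. Inside Eefsec, which serves selenoprotein synthesis, were chr6:88269267-88269758 with 5 subpeaks and chr6:88290459-88290692 with 2, 70.8 and 91.9 kb past the nearest Gata2 start. Around no other member did another gene hold a listed peak within 100 kb. Which gene such a peak acts on was not measured.

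Hlf (NCBI gene 217082, chr11:90336535-90390917) was open at its start without being listed there. The start peak, chr11:90390705-90391090, was 386 bp wide with 4 subpeaks. The YSM-listed peak, chr11:90417985-90418271, lay 27211 bp before the start, with 287 bp and 4 subpeaks. Next to it, 1396 bp further out, were intervals of 1 and 3 subpeaks, in neither list and 41 bp apart from each other. No peak lay elsewhere in the 54.4 kb gene. Both Meis1 and Hlf thus had a YSM-listed site away from the start, and the start peak was listed at Meis1 and not at Hlf.

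**Figure D2:**
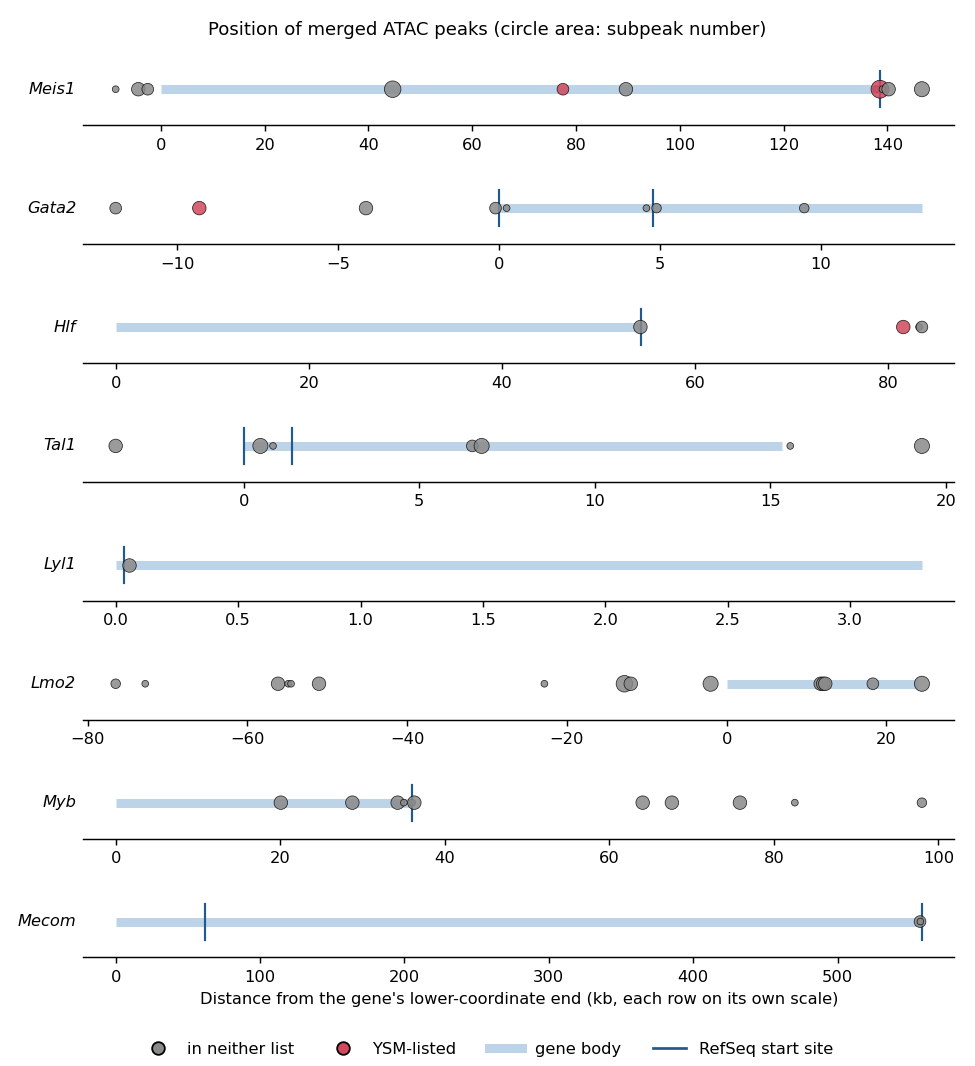
Positions of the merged peaks of the 8 genes with any, as distance in kb from the gene's lower-coordinate end (each row has its own scale). Pale bars are gene bodies, vertical lines RefSeq starts, and circles peak centres, with area in proportion to subpeak number and red for YSM-listed peaks. The red circles sit at and inside Meis1, 9311 bp before Gata2 and 27211 bp before Hlf.

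The Lmo2, Tal1 and Lyl1 genes, whose proteins meet in the complex named above, had no listed peak among 15, 7 and 1. With 1.48% of all merged peaks YSM-listed and 0.145% MDM-listed, such counts of 0 are near the background. Lmo2 (NCBI gene 16909, chr2:103957903-103981878) had 11 of its peaks outside the gene, up to 76492 bp from it. The peak with the most subpeaks, 6, was chr2:103944927-103945291, 12794 bp from the gene. Inside Lmo2, 3 peaks of 4 subpeaks each lay side by side from chr2:103969574 to 103970375, with gaps of 101 and 30 bp, so they can be pieces of 1 open region. Peaks of 5 subpeaks lay 477 bp beyond the gene's higher coordinate and 2004 bp from its lower one. At 20 kb from the gene or less, 8 of the 15 remained.

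Tal1 (NCBI gene 21349, chr4:115056426-115071755) had 3 peaks of 5 subpeaks each. Their centres lay 474 bp past the first start, 5390 bp past the second and 17930 bp past the second, the last one beyond the gene's end. None of the 7 Tal1 peaks reached either promoter window, and the first of these lay between them. Lyl1 (NCBI gene 17095, chr8:84701423-84704716) had a single peak over its start, chr8:84701362-84701597, of 236 bp and 4 subpeaks. Within 50 kb of Lyl1 there were 20 merged peaks, and the other 19 were nearer to, or inside, other genes, which the nearest-gene rule does not count.

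Myb (NCBI gene 17863, chr10:21124930-21160984) had 11 unlisted peaks, of which 7 had 4 subpeaks, the highest number at this gene. At the start an interval of 4 subpeaks, chr10:21161128-21161332, lay 67 bp from one of 1 subpeak. Inside the gene, peaks of 4 subpeaks lay 1780, 7287 and 15980 bp past the start. Before the start, 3 more had their centres 28003, 31552 and 39823 bp away. These 3 had room for a call in each library. All 3 were nearer to the long non-coding RNA gene Gm33619 (369, 3918 and 12189 bp) than to Myb. With genes of every annotated kind, or within 20 kb, Myb kept 6 peaks. That 0 of 11 were listed is near the background, with 1.48% of all merged peaks YSM-listed and 0.145% MDM-listed.

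Mecom, Gata1 and Erg had no merged peak of 4 or more subpeaks. Mecom (NCBI gene 14013, chr3:29951296-30509759) had intervals of 3 and 1 subpeaks, chr3:30508336-30508563 and chr3:30508595-30508795, 31 bp apart and 1310 and 1064 bp past its outer start. Neither Mecom interval by itself can have had a call in all 4 libraries. As such close neighbours they can be pieces of 1 open region with more calls than either interval shows. Near Gata1 (NCBI gene 14460, chrX:7959260-7976663) the closest merged peak was 11241 bp from the gene, at Hdac6, with 4 subpeaks. For Erg (NCBI gene 13876, chr16:95359169-95586600) the closest was 61303 bp away, at Ets2, with 1 subpeak. Within 100 kb of these genes there were 12 merged peaks around Gata1 and 5 around Erg, all assigned to other genes and none listed. A missing interval says that no peak was called in any of the 4 libraries, not that the chromatin was closed.

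Subpeak numbers had the same median, 4, for the members and for all genes. Of member peaks 47.5% (28 of 59) had 3 or fewer, against 41.8% of the peaks assigned to other genes. Exactly 4 subpeaks were seen in 37.3% (22) against 46.7%. Single-subpeak intervals made up 27.1% (16) against 19.9%, and those of 5 or more 15.3% (9) against 11.5%. None of these differences was tested. Medians per gene were 4 at Meis1, Tal1, Lyl1, Lmo2 and Myb, 3.5 at Hlf, 2.5 at Gata2 and 2 at Mecom. Of the 4 YSM-listed peaks, 1 had 3 subpeaks and the others had 4, 4 and 7. Over the genome 5.94% of peaks with 2 subpeaks were YSM-listed, and 0 of the 4 listed member peaks had that number. The 5.94% is a share of the peaks with 2 subpeaks, so it is no background for 0 of 4. Among all 1104 YSM-listed peaks, 516 had 2 subpeaks, and the 0 of 4 was not tested against this. Of the member peaks 45.8% (27) lay inside the gene they were assigned to, against 62.9% at other protein-coding genes, a difference that was not tested. Some of the others lay inside long non-coding RNA genes. With genes of every annotated kind in the assignment the member share was 73.0%, the same 27 peaks among 37. The share at other genes was not recounted in that way, so 73.0% is not to be set against 62.9%.

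**Figure D3:**
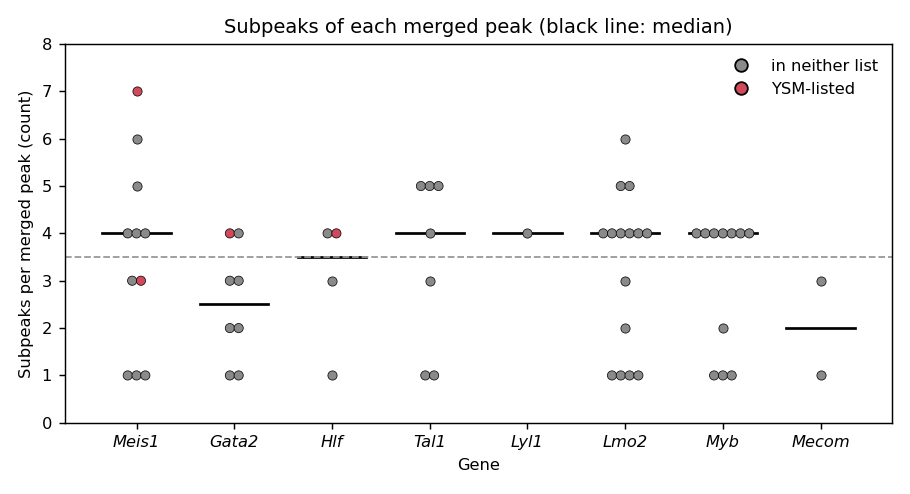
Subpeaks per merged peak (count, y axis) for each of the 8 genes with peaks (x axis). Each point is 1 peak, red for YSM-listed, black lines are medians, and below the dashed line at least 1 library had no call. The 4 red points stand at 7 and 3 for Meis1 and at 4 for Gata2 and for Hlf.

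Promoter windows showed which starts were open. Of the 14 windows, 6 were overlapped by a merged peak, at Meis1, Gata2 (both starts), Hlf, Lyl1 and Myb. Over all 32851 RefSeq windows 37.1% were. Openness of windows went with their CpG content, given as the observed over the expected number of CG dinucleotides. Windows at 0.6 or above had a peak in 77.9% of cases, and those below in 14.3%. The Myb window was at 0.95, Hlf at 0.89, the Gata2 windows at 0.90 and 0.76, and Meis1 at 0.59, all with a peak. Lyl1 had a peak at a ratio of 0.26, where 10.6% of windows between 0.2 and 0.3 did. Against this, the outer Mecom window at 1.0, the outermost Erg window at 0.94 and the Tal1 windows at 0.65 and 0.76 had none. Between 0.9 and 1.0, 83.7% of all windows had a peak. Gata1, at 0.17, and the inner Erg windows, at 0.19 and 0.28, were CpG-poor and had none.

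**Figure D4:**
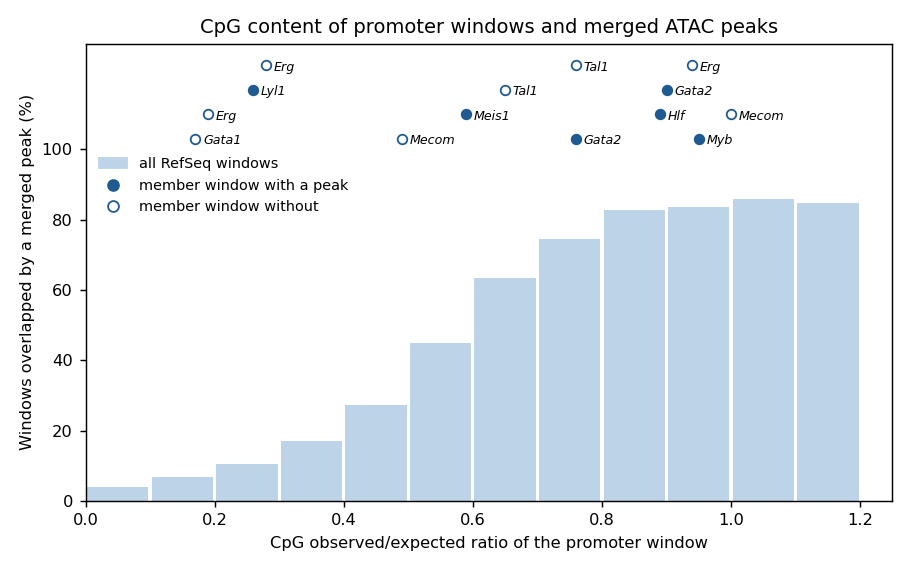
Bars give the share of all RefSeq promoter windows overlapped by a merged peak (%, y axis) by CpG observed/expected ratio (x axis, up to 1.2), and circles above them mark the 14 member windows at their own ratio (their height has no scale). Filled circles had a peak. Lyl1 is a filled circle at 0.26, and the outer Mecom window, without a peak, is an unfilled circle at 1.0.

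Short motifs of the factors themselves were then looked for in the windows, on both strands. The GATA forms searched were AGATAA (in 11.2% of all windows), TGATAA (9.05%), AGATAG (8.95%) and TGATAG (7.29%). At least 1 of them was in 4 of 14 member windows, 1 of Tal1, both of Mecom and 1 of Erg, and 0 of these 4 had a peak. At least 1 GATA form was in 29.8% of all windows, in 16.3% of those with a peak and 37.7% of those without. Windows with a GATA form thus had a peak less often over all genes too. The 0 of 4 is a small count that was not tested and sets the members apart from nothing. The outer Mecom window held an E-box, CAGATG read on the other strand, 20 bases before TGATAA. This stretch is shown because it holds both kinds of motif, in capitals, at chr3:30509785-30509816 on the minus strand.
Mecom stretch: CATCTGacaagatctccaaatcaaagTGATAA
E-box CAGATG was in 17.2% of all windows and in those of Tal1 (first start), Myb and Mecom (outer start), and CAGCTG, in 16.3%, was in the second Gata2 window. The Runx form TGTGGT was found in 1 member window, that of Meis1, 166 bases before the start, and in 16.8% of all windows. The Meis form TGACAG, in 19.2%, was in the inner Mecom window and in 1 Erg window, which held it at 2 positions. The Hlf forms TTACGTAA (0.119% of all windows) and TTACATAA (0.938%) and the PU.1 form GAGGAAGT (3.2%) were in 0 of 14. The Myb forms AACGG and AACTG, in 17.4% and 44.8% of all windows, were at Tal1, Mecom and Erg. The Ets core GGAA, part of GAGGAAGT, was in 96.0% of windows and tells little.

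Related genes were counted in the same way. Of 24 paralogues, 21 had merged peaks, 130 in all, with 0 in either list. Of all peaks assigned to a protein-coding gene, 1.36% were YSM-listed and 0.122% MDM-listed. The most were at the Ets genes Fli1 (20), Ets1 (19) and Ets2 (13), with 0 at their relative Erg. The 5 merged peaks within 100 kb of Erg were all assigned to Ets2. The counts of Ets2 and Erg thus depend on the nearest-gene rule. Meis2 had 1 peak, Meis3 4, Pknox2 6 and Pknox1 12, against 11 at Meis1. Gata3 and Gata4 had 5 each, and Gata5 and Gata6 2 each. The Hlf relatives Nfil3, Tef and Dbp had 5, 4 and 2. The 25 partner genes, all with peaks, held 265, again with 0 in either list. Tcf4 and Etv6 had 40 each and Runx1 had 39. No difference between these lists and the members was tested.

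Some genes matched a listed member in numbers of merged, YSM-listed and MDM-listed peaks. For Meis1, with 11, 2 and 0, there were 4, and the closest in median subpeaks were Nbea (4), Gab1 (3) and Atp8a2 (2). Of the 220 other genes with 11 peaks, 26 had a YSM-listed peak and 6 had at least 2. For Gata2 there were 22 such genes, led by Arhgef18, Kcnd3 and Phactr1 (median 2.5 each), and for Hlf 44, led by Cacna1s, Gpsm1 and Kcnk9 (3.5 each). A YSM-listed peak was at 32 of the 427 other genes with 8 peaks, the number at Gata2. It was at 61 of the 1464 others with 4, the number at Hlf.

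Peaks were also counted at markers of the labelled cells and of others that use these factors. All 10 macrophage markers, such as Csf1r, Cx3cr1 and P2ry12, had merged peaks (63), of which 25.4% had at most 3 subpeaks. Among 10 endothelial markers 8 had peaks (59, with 45.8% at most 3), and Tek and Sox17 had 0. Of 10 erythroid, megakaryocyte and mast cell markers, 7 had peaks (17, 47.1%), and Hba-a1, Hbb-bs and Mcpt4 had 0. Stem and progenitor markers had 38 peaks at 7 of 9 genes (31.6%), with 0 at Kit and Mpo. The 1 listed peak among these markers was YSM-listed, with 2 subpeaks, 53358 bp from the endothelial gene Emcn. The part of other cell types in the listed peaks of Meis1, Gata2 and Hlf was not tested.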

How the data were processed

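Omni-ATAC libraries of sorted mouse brain macrophages, 2 MDM and 2 YSM, were analysed from the deposited intervals. The submitters' processing notes name the mm10 build and, as tools of the authors, HOMER, Picard, Bowtie2 2.2.5 and Trimmomatic 0.39. Peaks of the 4 libraries were merged with HOMER mergePeaks, per the file headers. Not given in the sources used here: peak caller settings, any Tn5 shift, and the thresholds of the differential lists, which by name came from DESeq2. The deposited lists hold 1104 YSM and 108 MDM intervals, all also in the merged list of 74695, and 0 are in both. No fold change, p-value or value per library was used, so depth and precision per library were not analysed here.

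The last number of a deposited peak name was read as its count of subpeaks. All 15127 intervals with 1 subpeak were 201 bp wide, and 0 were wider than their subpeaks allow. The settings of the call are unknown, so the subpeak number shows calls, not signal strength. Gene intervals and promoters came from RefSeq tables of GRCm38.p6. Distances ran from peak centres, and coordinates are 1-based. Assignment used Python 3.11.15 and pandas 2.3.3 and was tested on simulated data. The promoter table gave strand, and annotated starts for 9 of 10 genes.

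The members and lists were chosen with earlier results of these data known. All 10 members were named, with each listed peak and, of unlisted ones, those at the start and with the most subpeaks; of related genes, those with a listed peak and the 3 with most peaks. Values of Meis2, Meis3, Pknox1, Pknox2, Gata3, Gata4, Gata5, Gata6, Nfil3, Tef and Dbp were added after they were seen. Alternatives varied the distance limit, gene set, subpeak minimum, merging of neighbours, edge distance and matching of lists. Sequences of distal peaks were not analysed here. An item of the marker lists is not reported here.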

Additional observations from a re-analysis of the deposited data

How the results depend on the processing

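Of 80 values, 8 results under 10 alternatives, 67 were labelled as the same and 13 as moved. The limits for this label were wide. A share was the same if it lay inside a binomial interval around its first value, which treats peaks as independent. A fall from 4 YSM-listed peaks to 3, or from 3 members with such a peak to 2, also counted as the same. The 67 thus include alternatives that lost the listed peak of Gata2 or of Hlf, and do not show that each result held. Most of the 13 moved through the alternative's own construction. The 59 member peaks became 27 inside gene bodies only, 37 when genes of every annotated kind competed, 31 with at least 4 subpeaks and 90 with any peak within 50 kb of a member. Inside gene bodies only, 2 YSM-listed peaks at 1 member, Meis1, were left of 4 at 3. With genes of every kind 3 were left, since the Gata2 peak went to Gm38708. At a limit of 20 kb the Hlf peak was lost. The share inside the gene moved from 45.8% to 30.0% (any peak within 50 kb), 61.4% (20 kb), 73.0% (every kind of gene) and 100% (gene bodies only). The share with at most 3 subpeaks moved from 47.5% to 27.9% with at least 2 subpeaks, 0% with at least 4, and 32.6% with peaks within 1 kb counted as 1 site and their subpeaks summed. MDM-listed peaks stayed at 0 under all 10. No paired analysis was possible because the deposited intervals hold no value per library, and for the same reason no library could be left out.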
